A study of Beta vulgaris with 12 samples.

Results

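The comparison of salt-treated sugar beet roots on day 7 with salt-treated roots on day 1 rests on 6 of the 12 RNA-seq libraries of the series. They were chosen by label alone, as the 3 libraries of S_7 (roots on day 7 of the salt treatment) and the 3 libraries of S_1 (roots on day 1 of it). Both groups are KWS0143 seedlings grown in Hoagland nutrient solution, and both received a mixture of NaCl and Na2SO4 that brought Na+ to 300 mM. CK_7 and CK_1 are the control roots of the same days, with 3 libraries each and no added salt. The final Na+ concentration was reached in steps over several days, and the methods do not say from which step the days were counted. The Na+ level that S_1 roots had met is therefore not certain. S_7 roots also came from older seedlings than S_1 roots. The longer treatment, the greater age and a possible difference in Na+ level cannot be told apart within the salt groups. The change between the same days in CK roots is therefore given for all genes together and for part of the lists and named genes. The difference between both changes was tested as an interaction. A named change or list count printed without a CK value or an interaction is not to be read as particular to salt. The methods describe 3 biological replicates for RNA, each grown in several containers, without the number of plants in a library.

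Sugar beet descends from a seashore plant and tolerates more salt than most crops. A root that meets salt loses water at first, and it typically answers with abscisic acid, protective hydrophilic proteins such as the late embryogenesis abundant (LEA) proteins, and compatible solutes. Later acclimation depends on the sorting of Na+, K+ and Cl- into vacuole and shoot, on new walls and membranes, and on the sealing of endodermis and xylem by suberin and lignin. Roots that are short of sugar break down fatty acids, branched-chain amino acids and cell wall sugars for carbon, and asparagine then stores the nitrogen that is released.

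Levels are FPKM values (fragments per kilobase of transcript, scaled to the mapped fragments of the library), and fold changes are differences of mean log2(FPKM + 1), which understate the change of genes with a low FPKM. Across genes with a mean of at least 1 FPKM, the correlation of log2(FPKM + 1) was 0.836 to 0.855 between S_7 libraries, 0.850 to 0.858 between S_1 libraries and 0.768 to 0.808 between an S_7 and an S_1 library. Relative to the other libraries, the typical gene was higher in S_7 (median ratios of 1.21, 1.10 and 1.12) than in S_1 (1.01, 0.914 and 0.905). Dividing by these ratios lowered the median log2 fold change of genes with a mean of at least 1 FPKM by 0.230, to -0.01 against 0.22 as deposited, so that counts for the main groups of higher genes are given with and without this scaling. A value of exactly 0 is not read as absence, because 514 of the tested genes reached 20 FPKM or more in part of the 12 libraries while others gave 0. Of 13 root marker genes, 12 were above 0 in the salt libraries, and their summed level was 352, 278 and 288 FPKM in S_7 and 206, 195 and 164 FPKM in S_1.

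Of the 27398 genes tested, 1857 (6.78%) had an unadjusted limma P under 0.05 together with an absolute log2 fold change of more than 1. These limits are those of the study's methods, which applied them to tests made with Ballgown and not limma. Such genes are named called here. In S_7, 1127 of them (4.11%) were higher and 730 (2.66%) lower than in S_1. The counts of list members below are to be read against these shares, and counts near them are not a trait of the list. With a limma adjusted p under 0.05 in place of the unadjusted P, 335 genes (1.22%) were higher and 217 (0.792%) lower. The direction of the balance rested on the scale of the libraries, since median-ratio scaling gave 639 higher and 1088 lower genes, or 37.0% higher against 60.7% as deposited. Counts of list members with scaling are to be read against these 639 and 1088 of 27398 genes, as the scaling moved all genes downward. Of the called genes, 1787 had 3 S_7 libraries that all lay above or all lay below the 3 S_1 libraries, which was the case for 8392 (30.6%) of all tested genes. Changes beyond 2 on the log2 scale were found in 169 higher and 198 lower genes. Among the called genes, 672 had no description or a hypothetical one.

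In CK roots, which share no library with the salt groups, 1877 genes (6.85%) were higher on day 7 than on day 1 and 931 (3.40%) were lower. List counts in CK are to be read against these shares. Genes higher on day 7 in both salt and CK roots numbered 436, or 38.7% of those higher under salt and 23.2% of those higher in CK. Genes lower on day 7 in both numbered 250, or 34.2% and 26.9% of the lists. Opposite calls were fewer, with 35 genes higher under salt and lower in CK (3.11% and 3.76% of the lists) and 45 genes lower under salt and higher in CK (6.16% and 2.40%). The interaction had a limma adjusted p under 0.05 in 499 of 28320 genes (1.76%). Among the genes called in S_7 against S_1 there were 143 with such an interaction (7.70%), 74 of the higher and 69 of the lower ones. Most salt calls therefore came without a detected difference from CK, which does not show that both changes were alike.

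**Figure D1:**
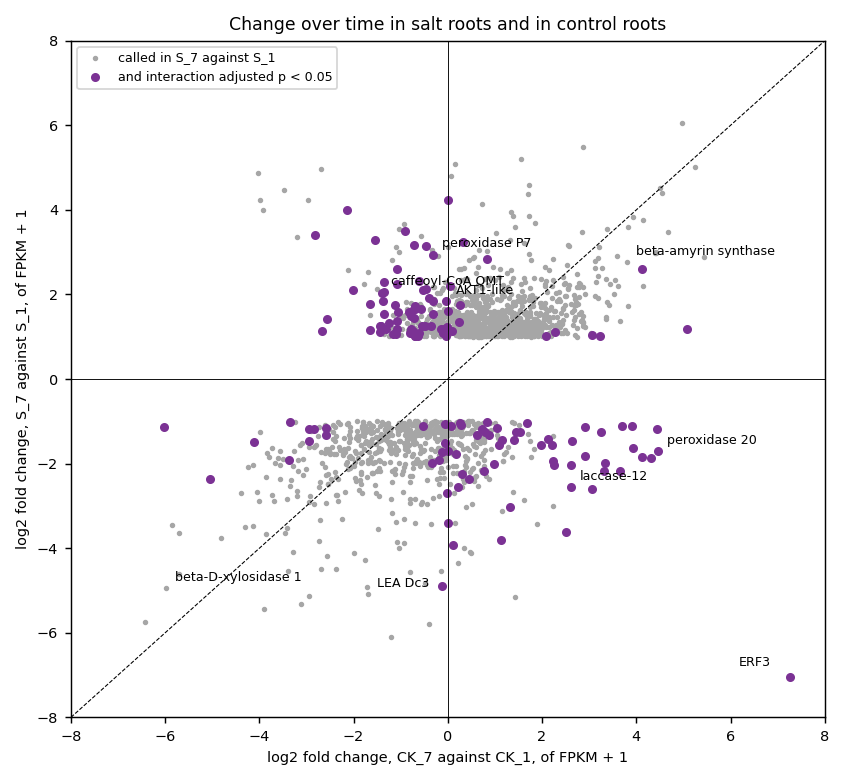
Log2 fold change of S_7 against S_1 (vertical) and of CK_7 against CK_1 (horizontal) for the 1855 genes called in S_7 against S_1 and tested in CK, with the 142 genes of an interaction adjusted p under 0.05 in purple and the line of equal change dashed. The empty band between -1 and 1 is made by the fold change limit, and laccase-12, peroxidase 20 and ERF3 lie where the change is negative under salt and positive in CK. The position of ERF3 rests on groups listed at 0.

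**Figure D2:**
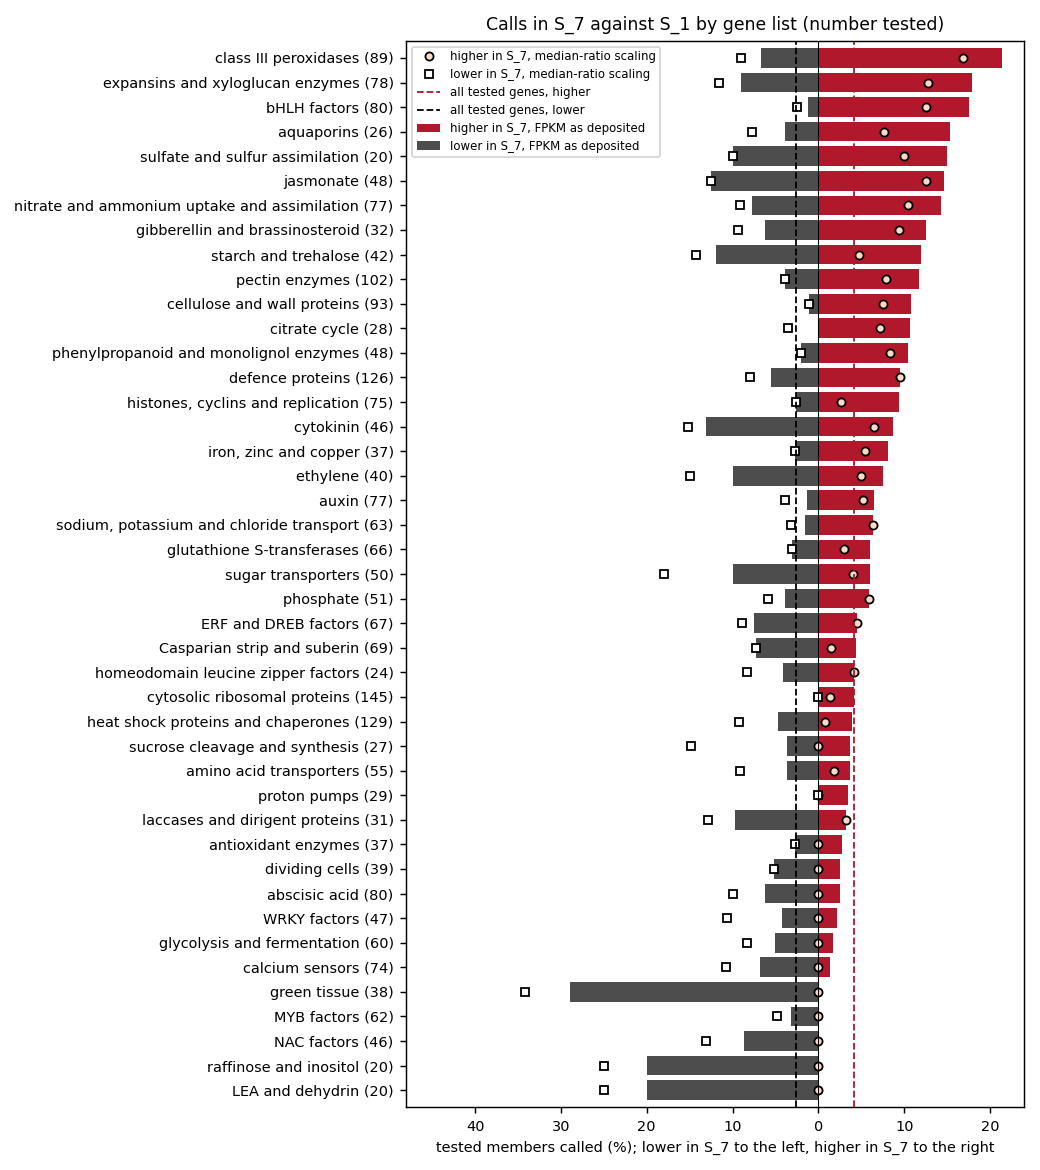
Share of tested members called in S_7 against S_1 for the 43 gene lists with at least 20 tested genes, with bars for the values as deposited, symbols for median-ratio scaling and dashed lines for all tested genes (4.11% higher and 2.66% lower). Class III peroxidases reach the highest share of higher genes and green tissue genes the highest share of lower genes.

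Some of the LEA and dehydrin genes, whose products are thought to protect proteins and membranes of drying cells, were among the genes that fell most between the days. Of 20 tested members, 4 fell and 0 rose, with a median log2 fold change of -0.18 against 0.09 over all tested genes. LEA Dc3 (LOC104904610) had 12.3, 73.1 and 17.03 FPKM in S_7 and 1308, 472 and 1133 FPKM in S_1 (log2 fold change -5.09, standard error 0.76, limma adjusted p = 0.0414). All S_1 libraries lay above all S_7 libraries, and in CK_7 and CK_1 the gene averaged 4.47 and 17.2 FPKM. LEA 46 (LOC104889201) had 46.5, 35.3 and 12.2 FPKM in S_7 against 576, 311 and 746 FPKM in S_1 (log2 fold change -4.18, standard error 0.58, limma adjusted p = 0.0373). These S_7 levels were still above CK_7, where LEA 46 had 0.906, 0.358 and 0.739 FPKM. In CK_1 it had 10.4, 5.06 and 12.3 FPKM, so that LEA 46 also fell in CK (log2 fold change -2.56). Its interaction had a limma adjusted p of 0.330. LTI65 (LOC104888643), a low-temperature-induced protein whose Arabidopsis relative responds to abscisic acid and drought, had 0.398, 1.17 and 0.185 FPKM in S_7 and 13.6, 7.76 and 31.8 FPKM in S_1 (log2 fold change -3.39, standard error 0.54, limma adjusted p = 0.0446). It was at 0.0297 FPKM or less in every CK library, and its change differed from that in CK (interaction -3.40, limma adjusted p = 0.0239). The other called member was the desiccation-related protein LOC104890308, with 0, 0.543 and 0.109 FPKM in S_7 and 3.08, 4.34 and 1.72 FPKM in S_1 (limma adjusted p = 0.0596). Several members did not follow this pattern. Lea5 (LOC104898925) had 146, 247 and 47.9 FPKM in S_7 and 215, 34.7 and 42.7 FPKM in S_1 and was not called, with overlapping groups. The summed level of the list was 237, 402 and 103 FPKM in S_7 and 2177, 865 and 2028 FPKM in S_1.

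Among compatible solute genes, those of glycine betaine and proline gave few calls, and some of those of raffinose and inositol were lower. None of the 8 genes of glycine betaine synthesis was called by limma, although 4 had an unadjusted P under 0.05 at a fold change within the limit. The smallest P belonged to a betaine aldehyde dehydrogenase (MSTRG.8865), the enzyme of the last step, with 61.1, 63.8 and 65.6 FPKM in S_7 and 45.3, 39.5 and 39.98 FPKM in S_1 (limma adjusted p = 0.05403). Choline monooxygenase (LOC104897072), the first enzyme of this route, had 242, 267 and 347 FPKM in S_7 and 509, 461 and 407 FPKM in S_1, which was not called because its log2 fold change was -0.69. Of 9 proline genes 1 was called, proline dehydrogenase 2 (LOC104905171), which degrades proline, and it was lower with 20.97, 38.4 and 27.1 FPKM in S_7 against 147, 94.2 and 65.1 FPKM in S_1 (limma adjusted p = 0.0687). In the raffinose and inositol list 4 of 20 genes were lower and none higher at the unadjusted P, where 2.66% of all tested genes were lower, and none passed at the adjusted p. With median-ratio scaling 5 were lower, against 1088 of all 27398 tested genes. The leading gene of this list was a galactinol-sucrose galactosyltransferase (LOC104901981), which makes raffinose, with 17.8, 27.8 and 14.4 FPKM in S_7 and 68.2, 56.9 and 121 FPKM in S_1. This gene and proline dehydrogenase 2 also fell in CK, with log2 fold changes of -1.82 and -1.54. Their interactions had limma adjusted p of 0.935 and 0.922.

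Enzymes of branched-chain amino acid degradation fell in part. Among KEGG pathways, where 5.69% of the 3848 tested genes with a pathway were higher and 3.87% lower, the degradation of valine, leucine and isoleucine had 11 of 44 genes lower and 3 higher, and 9 of the lower ones passed at the adjusted p. The subunit alpha 1 of 2-oxoisovalerate dehydrogenase (LOC104894712), which commits the branched-chain keto acids to oxidation, had 5.44, 4.03 and 6.71 FPKM in S_7 and 131, 51.4 and 88.6 FPKM in S_1 (log2 fold change -3.76, standard error 0.37, limma adjusted p = 0.0212). Isovaleryl-CoA dehydrogenase (LOC104903261), a later enzyme of leucine breakdown, had 6.16, 6.62 and 7.32 FPKM in S_7 and 51.7, 33.1 and 61.1 FPKM in S_1 (log2 fold change -2.65, limma adjusted p = 0.0168). A branched-chain amino acid aminotransferase described as chloroplastic (LOC104901595) and both subunits of methylcrotonoyl-CoA carboxylase (LOC104894538 and LOC104905097) fell likewise, with log2 fold changes of -2.52, -2.44 and -1.91. The drop in these 5 genes was present in CK roots as well, with log2 changes of -4.82, -3.20, -3.36, -2.70 and -3.19 in the same order of genes. Of the 44 genes of the pathway, 14 were lower in CK_7 than in CK_1, against 173 of 3803 genes with a pathway.

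Both enzymes that define the glyoxylate cycle, which turns fatty acid carbon into sugar precursors, fell too. Malate synthase (MSTRG.8293) had 6.798, 3.797 and 14.8 FPKM in S_7 and 151, 306 and 185 FPKM in S_1 (log2 fold change -4.61, standard error 0.50, limma adjusted p = 0.0268). Isocitrate lyase (LOC104901757) had 2.41, 1.32 and 3.79 FPKM in S_7 and 40.4, 47.5 and 35.2 FPKM in S_1 (log2 fold change -3.64, standard error 0.29, limma adjusted p = 0.0141). In CK_7 the mean levels were below those of S_7, with means of 1.61 and 0.1898 FPKM, against 171 and 81.8 FPKM in CK_1. The KEGG pathway of fatty acid degradation had 4 of 40 genes lower and 2 higher. Named genes of beta-oxidation were acyl-CoA oxidase 2 (LOC104895703, log2 fold change -1.31, limma adjusted p = 0.0396) and a multifunctional protein (LOC104906532, -1.21, limma adjusted p = 0.0302). The oxidase fell more in CK, by a log2 fold change of -2.59 (interaction 1.28, limma adjusted p = 0.0396). The triacylglycerol lipase SDP1 (LOC104889439), which starts the use of storage lipid in Arabidopsis seedlings, had 8.31, 10.5 and 6.57 FPKM in S_7 and 15.4, 15.9 and 23.2 FPKM in S_1 (limma adjusted p = 0.0793). The gene for beta-D-xylosidase 1 (LOC104888401), a wall hydrolase, had a decrease close to that of LEA Dc3, with 23.7, 4.86 and 13.1 FPKM in S_7 and 370.2, 297 and 533 FPKM in S_1 (log2 fold change -4.94, standard error 0.56, limma adjusted p = 0.0278). Asparagine synthetase 1 (LOC104899932) had 9.84, 6.602 and 11.3 FPKM in S_7 and 48.6, 51.1 and 25.7 FPKM in S_1 (log2 fold change -2.03, standard error 0.33, limma adjusted p = 0.04601). Alcohol dehydrogenase (LOC104891196), the last enzyme of fermentation, had 26.9, 15.4 and 17.9 FPKM in S_7 and 78.4, 58.9 and 92.3 FPKM in S_1 (log2 fold change -1.89, standard error 0.26, limma adjusted p = 0.0373). In each of these 3 genes the CK roots also had lower levels on day 7, and no interaction was detected at an adjusted p under 0.05.

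**Figure D3:**
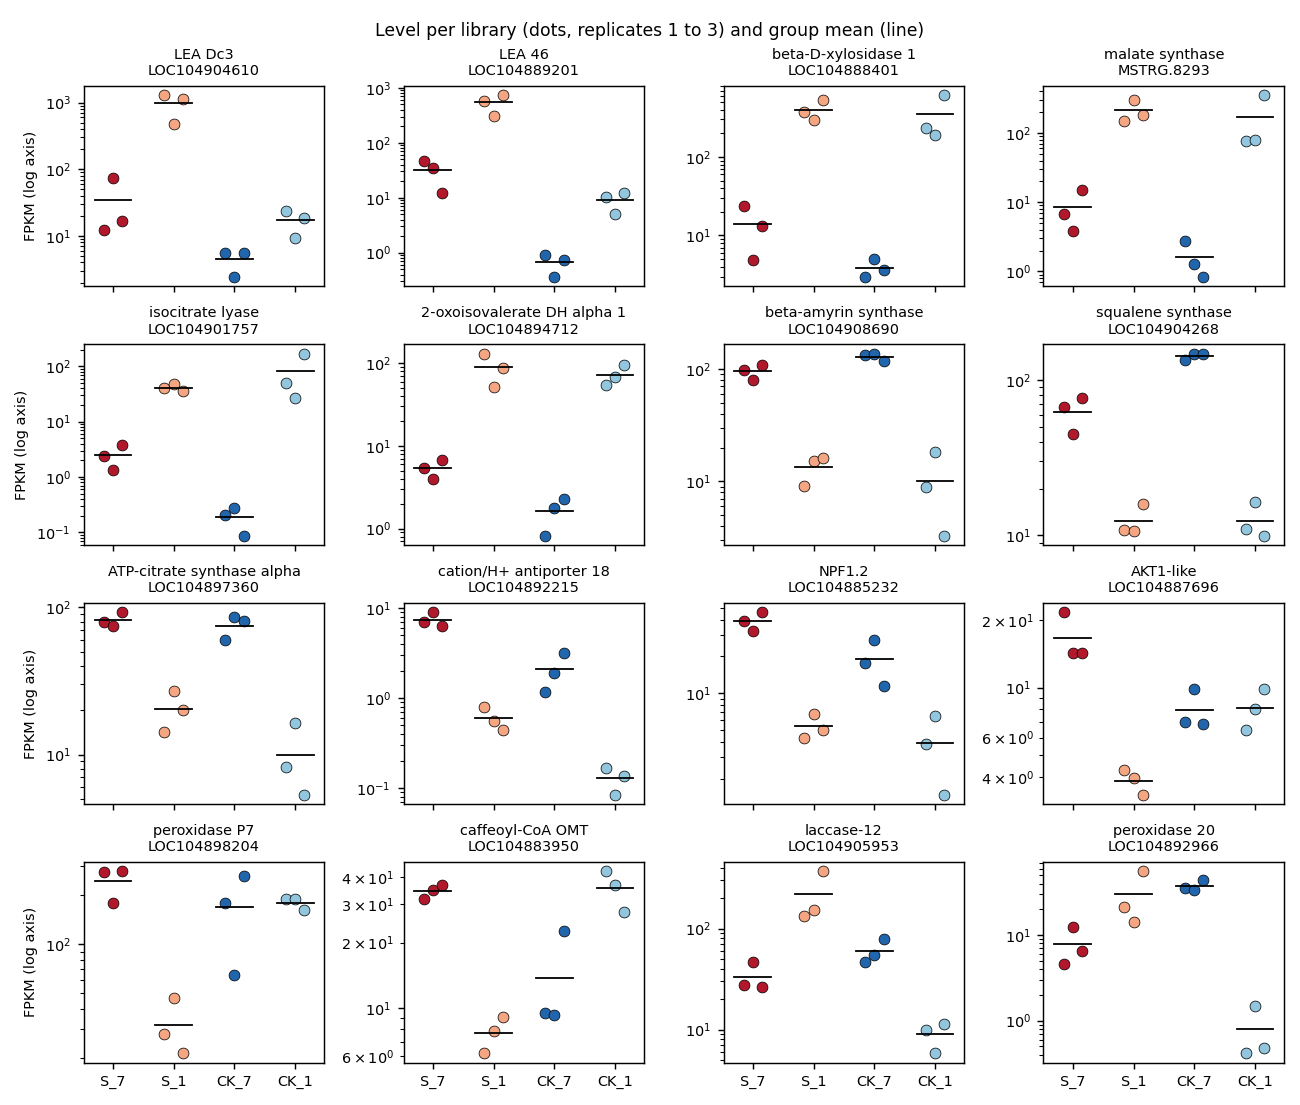
FPKM of 16 genes in every library (dots, replicates 1 to 3) with the group mean (line), on a log axis of its own for each gene and in the group order S_7, S_1, CK_7, CK_1. The upper 6 genes are lower in S_7 than in S_1, the 8 genes from beta-amyrin synthase to caffeoyl-CoA OMT are higher, and laccase-12 and peroxidase 20 change in opposite directions under salt and in CK.

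Sugar-related genes were called in both directions. Of 50 tested sugar transporters, 5 fell (10%) and 3 rose (6%), against 2.66% and 4.11% of all tested genes. With median-ratio scaling 9 fell and 2 rose. SWEET1 (LOC104895111), a bidirectional transporter, had 5.06, 5.498 and 7.08 FPKM in S_7 and 63.7, 25.4 and 50.3 FPKM in S_1 (log2 fold change -2.70, standard error 0.35, limma adjusted p = 0.0345), and its log2 change in CK was -0.03 (interaction -2.67, limma adjusted p = 0.0499). SWEET5 (LOC104894255) and the hexose importer STP13 (LOC104884473) fell too, with log2 fold changes of -2.93 and -2.13. In CK they fell likewise, with -2.59 and -2.12. In contrast SWEET17 (LOC104906534), a tonoplast fructose transporter in Arabidopsis, had 15.5, 9.67 and 12.2 FPKM in S_7 and 4.398, 4.59 and 2.76 FPKM in S_1 (log2 fold change 1.45), and monosaccharide-sensing protein 2 (LOC104894149), which belongs to a vacuolar family, rose by 2.62. In the starch and trehalose list 5 of 42 genes rose and 5 fell, or 2 and 6 with scaling. A gene described as probable trehalose-phosphate synthase 11 (LOC104901797) had 43.4, 55.2 and 56.9 FPKM in S_7 and 153, 148 and 164 FPKM in S_1 (log2 fold change -1.57, standard error 0.15, limma adjusted p = 0.0199). The probable trehalose-phosphate phosphatase F (LOC104892054) had 6.83, 5.18 and 4.99 FPKM in S_7 and 1.21, 2.07 and 1.58 FPKM in S_1 (log2 fold change 1.35, limma adjusted p = 0.0484). In CK these 2 genes changed by -1.85 and 1.03. Sucrose cleavage and synthesis gave 1 higher and 1 lower of 27 genes, glycolysis and fermentation 1 and 3 of 60, and the citrate cycle 3 and 0 of 28. The citrate cycle list includes ATP-citrate synthase (LOC104897360), which supplies acetyl-CoA outside mitochondria, with 79.8, 75.05 and 92.6 FPKM in S_7 and 14.3, 26.997 and 19.96 FPKM in S_1 (log2 fold change 2.00, standard error 0.24, limma adjusted p = 0.0291). In CK this gene rose by 2.91.

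Signal genes of abscisic acid, the hormone of water shortage, moved in few cases. Of 80 tested genes, 5 fell (6.25%) and 2 rose (2.5%), against 2.66% and 4.11% of all tested genes. Protein phosphatases 2C 56 (LOC104902294) and 27 (LOC104901053) fell, with log2 fold changes of -1.35 and -1.16 (limma adjusted p = 0.0266 and 0.0497). The gene for phosphatase 56, whose Arabidopsis namesake restrains abscisic acid signals, had 10.9, 14.6 and 12.9 FPKM in S_7 and 37.3, 34.9 and 30.4 FPKM in S_1. Heat shock proteins and chaperones showed 5 higher and 6 lower of 129 genes (3.88% and 4.65%, against 4.11% and 2.66% of all tested genes). With median-ratio scaling they showed 1 and 12, against 639 and 1088 of all 27398 tested genes. The heat shock factor HSF30 (LOC104886614) fell, with 3.41, 3.47 and 4.01 FPKM in S_7 against 11.4, 8.86 and 9.33 FPKM in S_1 (log2 fold change -1.22, standard error 0.15, limma adjusted p = 0.0307). The ferritin gene LOC104892547, whose product stores iron, had 71.3, 56.9 and 91.3 FPKM in S_7 and 275, 396 and 205 FPKM in S_1 (log2 fold change -1.96, standard error 0.31, limma adjusted p = 0.0448). It fell in CK as well, with a log2 fold change of -1.55.

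Cytokinin genes moved on both sides of the pathway. In the zeatin pathway of KEGG, 3 of 19 genes were lower and 0 higher, and these were cytokinin dehydrogenases 6 and 5 (LOC104887446 and LOC104889207), which degrade the hormone, and a zeatin O-glucosyltransferase (LOC104889383), which stores it. Cytokinin dehydrogenase 5 had 6.69, 4.53 and 5.12 FPKM in S_7 and 20.1, 12.9 and 28.04 FPKM in S_1 (log2 fold change -1.68, limma adjusted p = 0.0553). ARR6 (LOC104885389), a response regulator that is a quick target of cytokinin in Arabidopsis, was higher with 8.94, 8.33 and 15.8 FPKM in S_7 and 1.42, 1.75 and 1.57 FPKM in S_1 (log2 fold change 2.17, standard error 0.27, limma adjusted p = 0.0304). Histidine kinase 1 (LOC104895176), an osmosensor in Arabidopsis rather than a cytokinin receptor, rose by 1.27 on the log2 scale. Both called genes for the phosphoribohydrolases that activate cytokinin (LOC104884437 and LOC104903840) were lower, with log2 fold changes of -1.21 and -1.06. The cytokinin list as a whole had 4 higher and 6 lower of 46 genes.

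The jasmonate list, which also holds lipoxygenases that do not lead to the hormone, moved in both directions. Of 48 genes, 7 rose and 6 fell. The 9-lipoxygenase gene LOC104890829 had 119, 99.9 and 113 FPKM in S_7 and 17.5, 24.2 and 18.6 FPKM in S_1 (log2 fold change 2.41, standard error 0.16, limma adjusted p = 0.0106), while its namesake LOC104890834 had 38.2, 28.4 and 44.7 FPKM in S_7 and 88.9, 135 and 104 FPKM in S_1 (log2 fold change -1.54, standard error 0.23, limma adjusted p = 0.0428). Reads of such close relatives were divided by the authors' software, so that the split between them is uncertain. A jasmonate-induced protein (LOC104896151) fell to 188, 171 and 197 FPKM in S_7, against 616, 719 and 670.3 FPKM in S_1, and 12-oxophytodienoate reductase 2 (MSTRG.1205) was lower at a log2 fold change of -1.27. The KEGG pathways of linoleic and alpha-linolenic acid, which overlap with this list and with beta-oxidation, had 4 of 16 and 6 of 33 genes lower. The tropane, piperidine and pyridine alkaloid pathway had 4 of 24 lower, among them 2 primary amine oxidases (LOC104892095 and LOC104892088) and a cytoplasmic aspartate aminotransferase (LOC104906385), which is an enzyme of general amino acid metabolism.

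Ethylene, auxin, gibberellin and brassinosteroid genes were called in both directions. Genes described as homologs of 1-aminocyclopropane-1-carboxylate oxidase went both ways, with LOC104906007 higher by 2.61, LOC104887971 higher by 1.21 and LOC104889268 lower, at a log2 fold change of -1.16. LOC104906007 had 36.2, 21.2 and 29.5 FPKM in S_7 and 5.06, 3.396 and 3.195 FPKM in S_1. The auxin efflux carrier 1b (LOC104889504) was higher, with 18.3, 19.7 and 14.96 FPKM in S_7 and 5.24, 4.27 and 2.86 FPKM in S_1 (log2 fold change 1.88, standard error 0.22, limma adjusted p = 0.02799). Against 4.11% higher and 2.66% lower of all tested genes, 3 of 40 ethylene genes rose (7.5%) and 4 fell (10%). Of 77 auxin genes 5 rose (6.49%) and 1 fell (1.3%). Of 32 gibberellin and brassinosteroid genes 4 rose (12.5%) and 2 fell (6.25%). With scaling the higher and lower counts were 2 and 6, 4 and 3, and 3 and 3.

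Genes of photosynthesis, which are not typical of roots, had the highest shares of lower genes. The GO term for light harvesting had 8 of 16 genes lower, photosystem I 10 of 25 and photosystem II 10 of 36, where 5.37% of the 9901 tested genes with a GO term were higher and 3.32% lower. The KEGG pathway of antenna proteins (8 of 16) and the GO terms for chlorophyll binding (8 of 18), protein-chromophore linkage (8 of 19) and the response to high light (4 of 16) share most of these genes. Subunit VI of photosystem I (LOC104904686) had 0.239, 0.246 and 1.02 FPKM in S_7 and 65.04, 14.9 and 36.4 FPKM in S_1 (log2 fold change -4.54, standard error 0.55, limma adjusted p = 0.0301). The 10 kDa polypeptide of photosystem II (LOC104907596) had 0.175, 1.02 and 0.342 FPKM in S_7 and 51.4, 14.3 and 19.8 FPKM in S_1 (log2 fold change -4.12, standard error 0.51, limma adjusted p = 0.0302). Replicate 1 of S_1 held the highest values, and the other S_1 libraries also lay above every S_7 library. Over the 40 green tissue markers the summed level was 26.8, 27.6 and 37.2 FPKM in S_7 and 496, 90.7 and 173 FPKM in S_1, and 29.4, 32.4 and 48.4 FPKM in CK_7 and 88.9, 219.9 and 187 FPKM in CK_1. Of the markers tested, 11 of 38 were lower in S_7, and 3 of the 40 were at 0 in all S_7 libraries. The higher level in day 1 roots was thus common to salt and CK. Bulk RNA cannot tell fewer cells of a type from less RNA per cell, and whether green tissue was taken with the roots was not tested.

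Genes of the isoprenoid route from acetyl-CoA to sterols and triterpenoids were higher at many steps. Sesquiterpenoid and triterpenoid biosynthesis had 5 of 14 genes higher and 1 lower, terpenoid backbone biosynthesis 9 and 0 of 42, and steroid biosynthesis 5 and 1 of 30. With median-ratio scaling the counts were 5 and 1, 5 and 3, and 5 and 1. In CK they were 5 and 1, 6 and 1, and 7 and 1. Squalene synthase (LOC104904268), which joins farnesyl units to the precursor of both product classes, had 66.9, 45.0004 and 76.99 FPKM in S_7 and 10.9, 10.6 and 15.9 FPKM in S_1 (log2 fold change 2.24, standard error 0.26, limma adjusted p = 0.0279). Squalene monooxygenase (LOC104901642), the next enzyme, had 112, 78.9 and 78.6 FPKM in S_7 and 15.04, 25.95 and 16.7 FPKM in S_1 (log2 fold change 2.18, standard error 0.25, limma adjusted p = 0.0279). Beta-amyrin synthase (LOC104908690), which opens the branch to oleanane triterpenoids such as many saponins, had 97.1, 80.6 and 108 FPKM in S_7 and 9.03, 15.2 and 16.04 FPKM in S_1 (log2 fold change 2.77, standard error 0.25, limma adjusted p = 0.0165). No library of S_1 reached the lowest S_7 library in any of these genes. A (-)-germacrene D synthase (MSTRG.19490), a sesquiterpene enzyme, had 76.8, 43.9 and 70.6 FPKM in S_7 and 10.97, 11.7 and 10.7 FPKM in S_1 (log2 fold change 2.38, standard error 0.23, limma adjusted p = 0.0199). These 4 genes were also higher in CK_7 than in CK_1, by 3.45, 2.86, 3.79 and 3.35 on the log2 scale, with CK_7 means of 143, 170.2, 129 and 43.7 FPKM.

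Enzymes of the mevalonate pathway, which feeds this route, were called at several steps. Acetyl-CoA acetyltransferase (LOC104902969), mevalonate kinase (LOC104890853) and phosphomevalonate kinase (LOC104893048) rose by 1.21, 1.13 and 1.01 on the log2 scale, each with a limma adjusted p under 0.05. Hydroxymethylglutaryl-CoA synthase (LOC104892360, 1.68), hydroxymethylglutaryl-CoA reductase 1 (LOC104904096, 1.58), diphosphomevalonate decarboxylase (LOC104892092, 1.72), isopentenyl-diphosphate isomerase (LOC104890234, 1.39) and farnesyl pyrophosphate synthase 1 (LOC104891890, 1.47) were called at the unadjusted P only. The reductase, the rate-limiting enzyme of the route, had 57.8, 128 and 138 FPKM in S_7 and 52.5, 18.04 and 37.6 FPKM in S_1, with replicate 1 of S_7 close to the highest S_1 library. Of the sterol enzymes, a delta(7)-sterol-C5(6)-desaturase (LOC104888101) had 39.2, 33.7 and 38.2 FPKM in S_7 and 11.9, 5.23 and 7.65 FPKM in S_1 (log2 fold change 2.10, standard error 0.28, limma adjusted p = 0.0349), and its log2 change in CK was -0.13. No gene of the steroid pathway had a positive interaction at an adjusted p under 0.05. The GO term for isoprenoid biosynthesis had 5 of 14 genes higher.

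**Figure D4:**
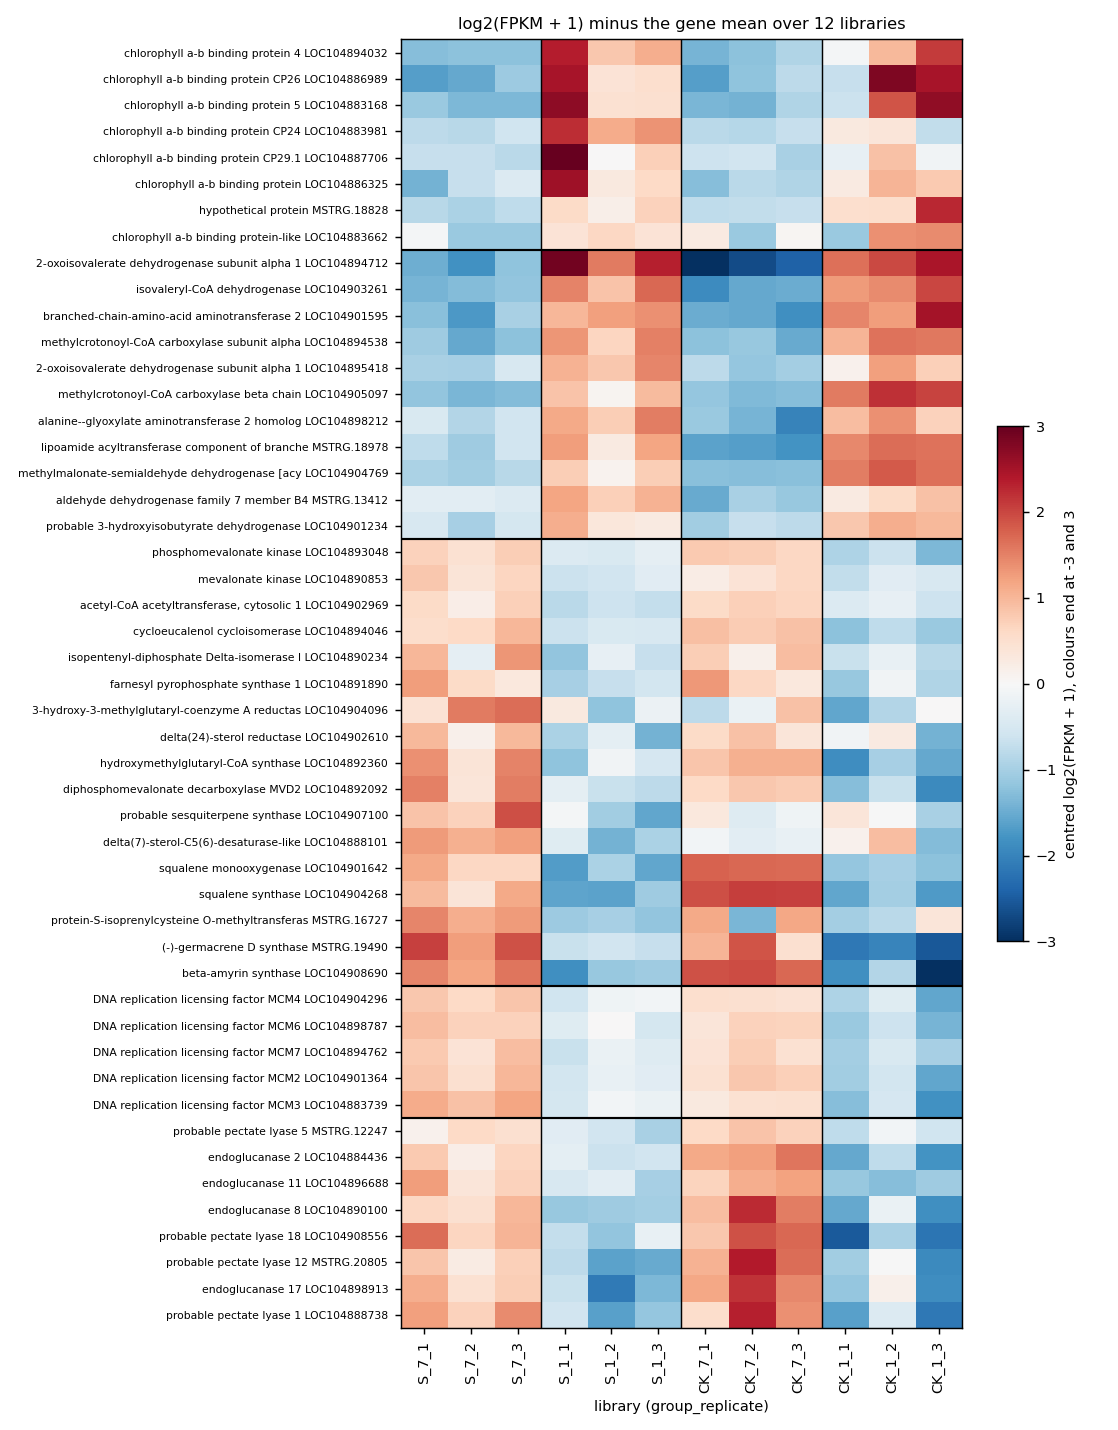
Log2(FPKM + 1) minus the mean of each gene over the 12 libraries, for the 49 genes called in S_7 against S_1 within light harvesting, branched-chain amino acid degradation, the terpenoid, triterpenoid and sterol pathways, DNA replication initiation, and the endoglucanase and pectate lyase terms, with the libraries in columns. The genes were picked by their calls between S_7 and S_1, and 48 of the 49 have the same sign of change in CK_7 against CK_1, with replicate 1 of S_1 darkest in the light harvesting genes.

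Phenylpropanoid biosynthesis, the route to lignin, had 32 of 169 genes higher and 10 lower, or 23 and 13 with median-ratio scaling. Most of these genes encode class III peroxidases, the secreted enzymes that couple monolignols and cross-link wall polymers, and 19 of 89 tested peroxidases rose and 6 fell. With the scaling these were 15 and 8, and 4 rose and 1 fell at the adjusted p. In CK, 33 of 165 tested genes of the pathway rose and 8 fell, and 21 of 88 tested peroxidases rose and 3 fell. Peroxidase P7 (LOC104898204) had 276, 178 and 280.3 FPKM in S_7 and 28.01, 46.4 and 21.3 FPKM in S_1 (log2 fold change 2.94, standard error 0.34, limma adjusted p = 0.0279). In CK roots it had 179, 64.8 and 261 FPKM on day 7 and 189, 189 and 162 FPKM on day 1, so that the 3 libraries of S_1 stood below all others (interaction 3.25, limma adjusted p = 0.0447). Peroxidase 42 (LOC104900996) had 111, 73.4 and 115 FPKM in S_7 and 27.7, 20.8 and 13.2 FPKM in S_1 (log2 fold change 2.25, standard error 0.32, limma adjusted p = 0.0377). Peroxidase 44 (LOC104907706) rose by 1.49 at a low level. A peroxidase 72 gene (LOC104895083) had 222, 162 and 222 FPKM in S_7 and 14.03, 54.001 and 26.4 FPKM in S_1, with a limma adjusted p of 0.0511. The opposite change was seen in cationic peroxidase 1-like (LOC104900272), with 3.11, 3.79 and 6.05 FPKM in S_7 and 23.6, 26.8 and 40.4 FPKM in S_1 (log2 fold change -2.56, standard error 0.29, limma adjusted p = 0.0278).

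Enzymes that methylate lignin precursors rose as well, and the phenylpropanoid and monolignol list had 5 of 48 genes higher and 1 lower. A caffeic acid 3-O-methyltransferase (LOC104888557) had 130.2, 216 and 261 FPKM in S_7 and 49.6, 38.3 and 39.4 FPKM in S_1 (log2 fold change 2.18, standard error 0.29, limma adjusted p = 0.0349). It rose in CK too, by 2.75 on the log2 scale. Another entry (MSTRG.189), which merges a pair of such genes, had 90.4, 83.3 and 106 FPKM in S_7 and 29.1, 31.7 and 27.1 FPKM in S_1 (log2 fold change 1.63, standard error 0.13, limma adjusted p = 0.01495). The caffeoyl-CoA O-methyltransferase gene LOC104883950 had 31.9, 34.9 and 36.8 FPKM in S_7 and 6.18, 7.803 and 9.08 FPKM in S_1 (log2 fold change 2.04, standard error 0.16, limma adjusted p = 0.0135). In CK roots its values ran the other way, with 9.52, 9.26 and 22.5 FPKM on day 7 and 42.7, 36.8 and 27.6 FPKM on day 1 (interaction 3.45, limma adjusted p = 0.00677).

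Genes that loosen and rebuild the wall were higher in part. Expansins and xyloglucan enzymes had 14 of 78 genes higher and 7 lower, pectin enzymes 12 and 4 of 102, and cellulose and wall proteins 10 and 1 of 93. With scaling the higher and lower genes were 10 and 9, 8 and 4, and 7 and 1. In CK they were 18 and 2 of 76, 15 and 0 of 96, and 19 and 3 of 84. Expansin-A10 (LOC104894031) had 18.95, 9.27 and 9.91 FPKM in S_7 and 2.07, 0.681 and 0.607 FPKM in S_1 (log2 fold change 2.69, standard error 0.39, limma adjusted p = 0.0396). Its log2 fold change in CK was 2.53. Endoglucanase 8 (LOC104890100), of a family that cuts glucans such as cellulose, had 7.05, 6.31 and 9.42 FPKM in S_7 and 1.39, 1.51 and 1.58 FPKM in S_1 (log2 fold change 1.77, standard error 0.20, limma adjusted p = 0.0278). Pectate lyases 1 (LOC104888738) and 12 (MSTRG.20805), which cut pectin, rose by 2.24 and 1.89, and pectinesterase 53 (LOC104902315) by 2.33. The GO terms behind these genes were pectate lyase activity (4 of 10 higher), cellulose catabolic process (4 of 10) and plant-type cell wall organization (5 of 14, or 2 with scaling). Expansin-like A3 (LOC104904176) was the main exception, with 0.245, 0.168 and 0.662 FPKM in S_7 and 46.7, 13.1 and 46.3 FPKM in S_1 (log2 fold change -4.56, standard error 0.52, limma adjusted p = 0.0279). Its CK libraries were widely spread, with 87.99, 19.97 and 0.4796 FPKM on day 7 and 14.3, 11.04 and 79.5 FPKM on day 1. Polygalacturonase 1 beta-like protein 3 (LOC104897390) and pectin acetylesterase 9 (LOC104888546) were lower too, with log2 fold changes of -2.15 and -1.54.

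DNA replication initiation had the highest share of higher genes among GO terms, 5 of 10, all of them subunits of the MCM helicase that unwinds DNA at replication origins. MCM3 (LOC104883739) had 11.9, 9.93 and 12.5 FPKM in S_7 and 3.16, 4.65 and 4.22 FPKM in S_1 (log2 fold change 1.32, standard error 0.18, limma adjusted p = 0.0354), and MCM2 (LOC104901364) had 13.7, 10.5 and 15.4 FPKM in S_7 and 4.62, 6.15 and 5.57 FPKM in S_1 (log2 fold change 1.13). MCM7, MCM6 and MCM4 (LOC104894762, LOC104898787 and LOC104904296) were near the fold change limit at 1.12, 1.06 and 1.02. With median-ratio scaling 1 gene of the term was called, so that the count depended on the scale. In CK, 5 of the 10 genes were higher and 0 lower. The large subunit of ribonucleoside-diphosphate reductase (LOC104895476), which makes DNA precursors, rose by 1.26. In the list of histones, cyclins and replication genes 7 of 75 rose and 2 fell, or 2 and 2 with scaling. The lower ones were histone H3.2 (LOC104891457) and histone H4 (LOC104906716), both listed at 0 in all S_7 libraries, with 32.6, 41.4 and 29.2 FPKM and 5.37, 7.96 and 5.54 FPKM in S_1. For the cytoskeleton, 3 of 10 structural genes rose, all tubulins, and 1 fell, or 1 and 1 with scaling. The beta-4 chain (LOC104890120) had 103, 91.2 and 104 FPKM in S_7 and 34.3, 49.3 and 41.7 FPKM in S_1 (log2 fold change 1.24, standard error 0.16, limma adjusted p = 0.0348). A marker list of dividing cells, made of histones and cyclins, had 1 higher and 2 lower of 39, of which 11 combined values of 0 with values of 20 FPKM or more.

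Transport of K+ and other ions gave few changes. Of 63 genes for Na+, K+ and Cl- transport, 4 rose (6.35%) and 1 fell (1.59%), against 4.11% and 2.66% of all tested genes. The higher count was also 4 with scaling. The AKT1-like channel (LOC104887696), whose Arabidopsis namesake takes up K+ into roots, had 21.6, 14.2 and 14.3 FPKM in S_7 and 4.28, 3.95 and 3.34 FPKM in S_1 (log2 fold change 1.84, standard error 0.20, limma adjusted p = 0.02705). In CK roots it had 7.06, 9.81 and 6.91 FPKM on day 7 and 6.46, 8.07 and 9.87 FPKM on day 1, so that S_7 lay above and S_1 below both (interaction 1.87, limma adjusted p = 0.0177). The cation/H+ antiporter 18 (LOC104892215), of a family that exchanges K+ for protons in endomembranes, had 6.98, 8.89 and 6.32 FPKM in S_7 and 0.792, 0.554 and 0.446 FPKM in S_1 (log2 fold change 2.39, standard error 0.21, limma adjusted p = 0.0165), against 2.08 FPKM on average in CK_7 and 0.1302 FPKM in CK_1. Potassium transporter 5 (LOC104887694) had 112, 101 and 93.98 FPKM in S_7 and 45.4, 27.1 and 15.2 FPKM in S_1 (log2 fold change 1.90, limma adjusted p = 0.0672). Chloride channel CLC-b (LOC104893891) was higher by 1.28 and CLC-e (LOC104904468) lower, at -1.16, at the unadjusted P. Of 29 proton pump genes 1 was higher, plasma membrane ATPase 4 (LOC104902389), with 463, 379 and 376 FPKM in S_7 and 173, 232 and 182 FPKM in S_1 (limma adjusted p = 0.0708). Its log2 fold change of 1.06 became 0.78 with scaling and was then not called. Aquaporins had 4 of 26 genes higher and 1 lower, none at the adjusted p.

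Genes of nitrogen uptake and assimilation were called in both directions. Of 77 genes for nitrate and ammonium use, 11 rose (14.3%) and 6 fell (7.79%), against 4.11% and 2.66% of all tested genes. With scaling 8 of the 77 rose and 7 fell, against 639 and 1088 of all 27398 tested genes. In CK, 17 of 75 tested genes of this list rose and 3 fell. Among the higher genes were 2 described as NRT1/PTR FAMILY 1.2, of a transporter family that carries nitrate among other solutes. LOC104885232 had 38.9, 32.5 and 45.9 FPKM in S_7 and 4.32, 6.73 and 5.03 FPKM in S_1 (log2 fold change 2.66, standard error 0.20, limma adjusted p = 0.01296), and LOC104885248 had 10.9, 9.31 and 10.6 FPKM in S_7 and 2.6004, 3.003 and 2.49 FPKM in S_1 (log2 fold change 1.61). Family member 7.3 (LOC104905384), which loads nitrate into the xylem in Arabidopsis, rose by 1.54, whereas a second gene of that description (LOC104892943) was lower at -2.17. Member 6.3, the nitrate sensor and transporter of Arabidopsis, was split as well, with LOC104892039 at 171, 131 and 123 FPKM in S_7 and 41.4, 26.2 and 6.26 FPKM in S_1 (limma adjusted p = 0.0843) and LOC104892040 at 74.5, 27.2 and 62.7 FPKM in S_7 and 139.7, 162 and 97.5 FPKM in S_1 (limma adjusted p = 0.139). Member 6.2 (LOC104902051) fell, with 4.47, 4.53 and 11.1 FPKM in S_7 and 78.5, 41.8 and 49.8 FPKM in S_1 (log2 fold change -2.96, standard error 0.40, limma adjusted p = 0.0359). Its log2 fold change in CK was -2.84. In the nitrogen metabolism pathway of KEGG 5 of 29 genes were higher and 2 lower, none at the adjusted p. They included nitrite reductase (LOC104891570) and plastid glutamine synthetase (LOC104883503). The synthetase had 66.8, 50.7 and 67.2 FPKM in S_7 and 21.1, 24.6 and 11.5 FPKM in S_1. Ureide permease 2 (LOC104895791), a transporter of allantoin and uracil in Arabidopsis, had 12.7, 11.8 and 8.48 FPKM in S_7 and 4.09, 3.22 and 2.74 FPKM in S_1 (log2 fold change 1.46, standard error 0.21, limma adjusted p = 0.0396), while xanthine dehydrogenase (LOC104889971), which acts before allantoin is made, was lower at -1.01. Of 55 amino acid transporters 2 rose and 2 fell, and the lysine and histidine transporter-like gene LOC104898559 rose by 1.79. Lysine biosynthesis had 2 of 11 genes higher and none with scaling.

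The largest increases among genes above 0 in all salt libraries came from several functions. NADH-quinone oxidoreductase subunit B 1 (LOC104886502) had 47.8, 39.4 and 53.9 FPKM in S_7 and 0.688, 0.0644 and 0.183 FPKM in S_1 (log2 fold change 5.21, standard error 0.23, limma adjusted p = 0.00208), and the mitochondrial ATP synthase subunit epsilon (LOC104892890) had 12.8, 38.004 and 52.8 FPKM in S_7 and 0.108, 0.0567 and 0.138 FPKM in S_1. Both switched within CK groups, where LOC104886502 had 29.9, 36.7 and 0.186 FPKM on day 7 and 0.159, 0.513 and 30.3 FPKM on day 1. A dioxygenase (LOC104894873) had 33.1, 53.6 and 56.002 FPKM in S_7 and 5.39, 3.17 and 1.28 FPKM in S_1 (log2 fold change 3.59, standard error 0.43, limma adjusted p = 0.0283). Purple acid phosphatase 29 (LOC104901834), which its description calls probably inactive, had 163, 105 and 172 FPKM in S_7 and 14.02, 17.9 and 19.1 FPKM in S_1 (log2 fold change 3.01, standard error 0.23, limma adjusted p = 0.0135), and it was higher in CK_7 than in CK_1 too. Cytochrome P450 87A3-like (LOC104904168) had 8.26, 8.102 and 19.9 FPKM in S_7 and 0.332, 0.367 and 0.157 FPKM in S_1 (log2 fold change 3.24, standard error 0.38, limma adjusted p = 0.0279). A glucosyltransferase (LOC104901833), berberine bridge enzyme-like 10 (LOC104901837) and an aminotransferase (LOC104893637) rose by 3.11, 2.90 and 2.90. The glucosyltransferase and the aminotransferase switched within CK_7, with 68.5, 1.62 and 64.8 FPKM and 8.11, 8.35 and 0.256 FPKM. Nramp5 (MSTRG.8005), a metal transporter that takes up manganese in rice, rose by 1.91, and the dehydroascorbate reductase DHAR2 (LOC104906117) had 220.1, 142 and 122 FPKM in S_7 and 44.2, 45.3 and 37.8 FPKM in S_1 (log2 fold change 1.86, standard error 0.25, limma adjusted p = 0.0348). In CK, Nramp5 and DHAR2 rose by 1.84 and 1.73.

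Among transcription factors, the bHLH factors that were called were mostly higher, with 14 of 80 higher and 1 lower (10 and 2 with scaling). These were 17.5% and 1.25%, against 4.11% and 2.66% of all tested genes, to which the counts of the other families also compare. In CK, 10 of 77 tested bHLH factors were higher and 4 lower. bHLH78 (LOC104889719) had 24.8, 26.4 and 25.04 FPKM in S_7 and 8.92, 10.2 and 10.5 FPKM in S_1 (log2 fold change 1.28, standard error 0.11, limma adjusted p = 0.01495). bHLH18-like (LOC104897817) rose by 1.73 and bHLH66 (LOC104897489), related to factors of root hair growth in Arabidopsis, by 1.15. NAC, MYB and WRKY factors, families with many stress and wall regulators, had 0, 0 and 1 higher and 4, 2 and 2 lower genes of 46, 62 and 47. The median log2 fold change of the WRKY factors was -0.31. NAC 104 (LOC104901573) had 7.34, 5.85 and 4.43 FPKM in S_7 and 14.4, 12.9 and 11.4 FPKM in S_1 (log2 fold change -1.03, limma adjusted p = 0.0611). ERF and DREB factors had 3 higher and 5 lower of 67, and homeodomain leucine zipper factors 1 and 1 of 24. The higher one was ATHB-12-like (LOC104883352), with 37.2, 23.6 and 20.6 FPKM in S_7 and 0.739, 0.889 and 6.88 FPKM in S_1 (limma adjusted p = 0.0658).

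A set of genes moved one way under salt and the other way in CK. Called genes with a negative interaction included 59 that were lower in S_7, of which 33 were higher in CK_7 than in CK_1. Laccase-12 (LOC104905953), of the enzymes that oxidise monolignols in xylem walls, had 27.5, 46.2 and 26.4 FPKM in S_7 and 132, 151 and 369 FPKM in S_1, but 46.9, 55.3 and 78.5 FPKM in CK_7 and 10.01, 5.82 and 11.4 FPKM in CK_1 (interaction -5.18, limma adjusted p = 0.00440). All S_1 libraries stood above all others. Peroxidase 20 (LOC104892966) had 4.65, 12.3 and 6.49 FPKM in S_7 and 21.6, 14.3 and 56.04 FPKM in S_1, and 35.3, 33.6 and 43.7 FPKM in CK_7 against 0.413, 1.47 and 0.479 FPKM in CK_1 (interaction -6.18, limma adjusted p = 0.00440). The GDSL lipases LOC104894041 and LOC104903605, of a family with members that polymerise cutin and suberin, had interactions of -5.61 and -5.49. Peroxidase 20 and these lipases fell by less under salt (log2 fold changes of -1.71, -1.18 and -2.18) than they rose in CK (4.47, 4.43 and 3.30). In each of these genes, replicate 3 was the highest of the S_1 libraries. MYB39 (LOC104900532), which directs suberin formation in Arabidopsis roots, had 2.42, 1.35 and 1.11 FPKM in S_7 and 6.74, 7.503 and 15.5 FPKM in S_1, and 2.49, 2.34 and 2.77 FPKM in CK_7 and 0.6998, 1.26 and 0.498 FPKM in CK_1 (interaction -2.98, limma adjusted p = 0.01497). Its log2 fold change in CK was 0.98, which was not called. In laccase-12, peroxidase 20, both lipases and MYB39 the decrease under salt was called at the unadjusted P only. The limma adjusted p of these decreases were 0.0546, 0.155, 0.205, 0.160 and 0.0578. Of the 69 Casparian strip and suberin genes tested under salt, 3 were higher and 5 lower in S_7 than in S_1. Of the 66 tested in CK, 12 were higher and 1 lower in CK_7 than in CK_1. The shares over all genes tested in CK were 6.85% and 3.40%. Interactions were negative in 5 of the 69 and positive in 0, against 265 negative and 234 positive ones among all 28320 genes. A fatty acyl-CoA reductase (LOC104900337), which makes the alcohols of suberin, rose under salt by 1.05 and in CK by 3.07, and was at 23.97, 24.03 and 19.5 FPKM in S_7 and 10.5, 8.64 and 11.9 FPKM in S_1. The CASP-like gene LOC104883549, related to proteins that place the Casparian strip, fell under salt to 18.95, 23.2 and 24.2 FPKM in S_7, against 303, 206 and 303 FPKM in S_1 (log2 fold change -3.54, standard error 0.21, limma adjusted p = 0.00726). It also fell in CK, by a log2 fold change of -1.49, and its interaction had a limma adjusted p of 0.0623. Laccases and dirigent proteins had 1 higher and 3 lower of 31 under salt, and 9 higher and 3 lower of 29 in CK. Xylem markers, which share laccases with this list, summed to 178, 182 and 179 FPKM in S_7 and 307, 364 and 539 FPKM in S_1.

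Among called genes with a positive interaction, 68 were higher in S_7, of which 25 were lower in CK_7 than in CK_1. An immediate early response 3-interacting protein gene (MSTRG.7335) had 16.7, 16.7 and 17.9 FPKM in S_7 and 0.129, 0.0639 and 0.197 FPKM in S_1, with 0.115, 0.0771 and 0.105 FPKM in CK_7 and 7.89, 10.3 and 0.122 FPKM in CK_1 (interaction 6.14, limma adjusted p = 0.0186). GOS9-like (LOC104903736) had 9.09, 20.4 and 30.1 FPKM in S_7 and 2.77, 0.473 and 0.291 FPKM in S_1, against 1.29, 3.45 and 6.86 FPKM in CK_7 and 7.72, 14.1 and 14.1 FPKM in CK_1 (interaction 4.83, limma adjusted p = 0.0237). Patatin-like protein 1 (LOC104895568), of a family of lipid acyl hydrolases, had 6.67, 7.14 and 13.8 FPKM in S_7 and 0.324, 0.758 and 0.766 FPKM in S_1 (log2 fold change 2.61, standard error 0.32, limma adjusted p = 0.0306), and its interaction was 3.68. In each of these genes the S_7 level exceeded the highest S_1 library.

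Some of the largest differences rested on values listed at 0. Of the called genes, 74 combined values of 0 with values of 20 FPKM or more among the 12 libraries, and no fold change is given for them here against a group at 0. The ethylene-responsive factor 3 gene (LOC104891730) was listed at 0 in all S_7 libraries and had 118, 139.9 and 138 FPKM in S_1, while CK_7 had 144, 159 and 153 FPKM and all CK_1 libraries were listed at 0 (interaction, limma adjusted p = 1.43e-11). ERF107 (LOC104890277) showed 14.3, 38.98 and 39.1 FPKM in S_7 and was listed at 0 in S_1, and it was listed at 0 in CK_7 and at 74.1, 0 and 57.7 FPKM in CK_1. The acyl-activating enzyme 6 gene (LOC104891232) was listed at 0 in S_7 and CK_7 and had 54.5, 43.5 and 60.98 FPKM in S_1. The sulfotransferase gene LOC104887595 was listed at 0 in S_7 and had 39.3, 29.1 and 51.7 FPKM in S_1. The calcium-binding protein PBP1 (LOC104903042) had 13.96, 151 and 127 FPKM in S_7 and was listed at 0 in S_1, but in CK_1 it was listed at 218, 0 and 0 FPKM. Plastid ribosomal protein L31 (LOC104889609) had 19.8, 19.7 and 19.6 FPKM in S_7, DNA ligase 4 (LOC104890064) had 8.47, 7.01 and 5.94 FPKM in S_7 and a TLC domain protein (LOC104897632) had 3.48, 4.32 and 3.48 FPKM in S_7. All these 3 genes were listed at 0 in S_1. The EP1-like glycoprotein gene LOC104891394 reached 74.8, 82.7 and 154 FPKM in S_1 and was listed at 0 in the 9 other libraries. Several of these genes alternated between 0 and a high value within 1 CK group.

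The remaining lists held few calls or calls in both directions. Over all tested genes 4.11% were higher and 2.66% lower. Defence proteins had 12 of 126 genes higher and 7 lower, among them a basic endochitinase (LOC104891226) that fell to 120.5, 121 and 206 FPKM in S_7, against 516, 850.4 and 627 FPKM in S_1. Cytosolic ribosomal proteins had a median log2 fold change of 0.42 (0.16 with scaling), but 6 of 145 were called higher and 0 lower. Calcium sensors had 1 higher and 5 lower of 74, antioxidant enzymes 1 and 1 of 37, and glutathione S-transferases 4 and 2 of 66. Sulfur assimilation had 3 higher and 2 lower of 20, iron, zinc and copper genes 3 and 1 of 37, phosphate genes 3 and 2 of 51, ureide genes 1 and 2 of 10, and clock genes 0 and 2 of 16. Root markers had 2 higher and 1 lower of 12, xylem markers 0 and 2 of 18, and of the 3 phloem markers none was called, with a smallest limma P of 0.326 in LOC104897214.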

How the data were processed

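Poly(A) RNA of sugar beet roots (KWS0143) was sequenced as paired-end libraries on an Illumina HiSeq instrument. The deposited values are FPKM per gene, made by the authors with HISAT2 2.0 and StringTie 1.3.0 as the submitters' processing notes name them. The notes also name Bowtie 0.12.2 and mm8, which is a mouse build, while the study's methods name the NCBI reference genome of sugar beet. The version of that assembly is not given in the sources used here. Whether counting used strand is not stated, and reads of near-identical or overlapping genes cannot be assigned with certainty. Read totals per library cannot be had from FPKM, so that the depth behind each value is unknown and no counting intervals are given. Columns of the authors' own comparisons (fold changes, P and q values) were not used, and 0 columns of per-sample values lacked a sample.

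Samples were grouped by their titles. Each gene was tested with limma 3.58.1 (R 4.3.3, with an intensity trend) on log2(FPKM + 1), with the 6 salt libraries for S_7 against S_1, the 6 CK libraries for CK_7 against CK_1, and all 12 libraries for the interaction, whose limit was an adjusted p under 0.05. The fold change and P limits are those of the study's methods, which used Ballgown, and P-values were adjusted by Benjamini-Hochberg over all genes tested, and genes at 0 in all libraries of a fit were left out. Gene lists were made from words in the descriptions, and the leading GO terms and KEGG pathways are the 6 with the highest share of called genes in each direction among terms with at least 10 tested genes. These are described by counts and medians without a set test. The comparison, the lists and the tests were chosen with earlier results of these data known, and some search words were corrected after values were seen.

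Genes were named by rule, from those with an informative description: the 10 largest changes in each direction among genes called at the adjusted p, without overlap and above 0 in all salt libraries; the 5 largest in each direction with 1 group at 0; the 3 largest in each direction per list at the adjusted p, or the smallest P; and the 5 highest and 5 lowest interactions among called genes above 0 in all libraries. Called members of the leading terms were also open to naming. LOC104890308, LOC104898925, LOC104897072, LOC104887694, LOC104893891, LOC104884437, LOC104903840, LOC104892943, LOC104892039, LOC104892040 and LOC104904468 were chosen after their values were seen.

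Alternatives were another P limit, a pseudocount of 0.1, a mean FPKM of at least 1, median-ratio scaling, a linear model without moderation, a ratio of mean FPKM, a fit of all libraries, the replicate number as a block, and leaving out each library. Leaving out CK libraries, the block and scaling of the CK comparison, and leaving out genes that combined values of 0 with values of 20 FPKM or more were chosen after seeing the data. The scripts were tested on simulated data. A planned search of promoters for motifs was not run, and no sequences were used here.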

Additional observations from a re-analysis of the deposited data

Results flagged for a closer look

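For 21 of the named genes the change between days differed between salt and CK roots by the limma interaction test (adjusted p under 0.05). For 18 of them the value below is the log2 change of S_7 against S_1 minus that of CK_7 against CK_1, and each kept its sign under the 16 settings tried. Negative values were found for 11 of these genes. Wall and suberin genes were laccase-12 (LOC104905953, -5.176), peroxidase 20 (LOC104892966, -6.181), the GDSL lipases LOC104894041 (-5.612) and LOC104903605 (-5.486), MYB39 (LOC104900532, -2.981), a fatty acyl-CoA reductase (LOC104900337, -2.014) and cationic peroxidase 1-like (LOC104900272, -2.766). From the list of defence proteins came a glucan endo-1,3-beta-D-glucosidase (LOC104904364, -2.039). The stress protein LTI65 (LOC104888643) was at -3.402 and the sugar transporter SWEET1 (LOC104895111) at -2.675. A myb-like protein X (LOC104895935) was at -6.115, with 1.301, 0.1796 and 0.509 FPKM in S_7, 18.04, 19.03 and 18.7 FPKM in S_1, 20.4, 21.6 and 22.2 FPKM in CK_7 and 0.202, 7.87 and 4.801 FPKM in CK_1.

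Positive values were found for 7 genes. They were the AKT1-like K+ channel (LOC104887696, 1.874), cytochrome P450 87A3-like (LOC104904168, 2.908), peroxidase P7 (LOC104898204, 3.247), a caffeoyl-CoA O-methyltransferase (LOC104883950, 3.449), patatin-like protein 1 (LOC104895568, 3.675), GOS9-like (LOC104903736, 4.834) and the immediate early response 3-interacting protein gene (MSTRG.7335, 6.137). The adjusted p stayed under 0.05 in 15 or all of the 16 settings, except for LTI65 (9 settings), cationic peroxidase 1-like (4), SWEET1 (4), the endo-glucosidase (3), peroxidase P7 (6) and GOS9-like (10). The CK_1 libraries of MSTRG.7335 ran from 0.122 to 10.3 FPKM.

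In the other 3 genes all libraries of at least 1 group were listed at 0, so that only the limma adjusted p of the interaction is given. It was 1.43e-11 for ERF3 (LOC104891730), 0.000101 for the EP1-like glycoprotein (LOC104891394) and 0.00581 for the TLC domain protein (LOC104897632), and it stayed under 0.05 in all 16 settings. None of these settings checks the values listed at 0, so that this stability does not bear on whether they are right.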

How the results depend on the processing

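The 1857 called genes became 552 with an adjusted p in place of the unadjusted P (335 higher, 217 lower), 3703 with a pseudocount of 0.1 (2441 higher, 1262 lower) and 3942 with a ratio of mean FPKM (2654 higher, 1288 lower). Median-ratio scaling gave 639 higher and 1088 lower genes, kept 1369 of the calls (73.7%), and moved 30 of the 100 counts of list members. Deviations of same-numbered S_7 and S_1 libraries from their group means correlated at 0.0302, -0.0607 and -0.0555. Those of same-numbered CK_7 and CK_1 libraries correlated at 0.0387, 0.102 and 0.0274. These weak values cannot settle whether the replicate numbers pair the libraries. With the replicate number as a block, 1763 genes were called, 2 at an adjusted p, and 230 had an interaction, against 499 without it. Genes at an adjusted p numbered 942 among genes with a mean of at least 1 FPKM, 207 without variance moderation and 972 in a fit of all 12 libraries. Leaving out 1 library gave 1794 to 2102 calls, 62 to 208 genes at an adjusted p (62 without S_7 replicate 3, 208 without S_1 replicate 2) and 273 to 565 interactions, the lowest without CK_7 replicate 3. Of 112 named genes called, 98 kept the call under every setting that gave a value (85 of them under 14 settings, 13 under 12 or 13), 14 lost it in some setting and none reversed. Median-ratio scaling ended the calls of plasma membrane ATPase 4, MCM2, bHLH66, the fatty acyl-CoA reductase LOC104900337 and the oxidase homolog LOC104887971. The calls of peroxidase 20, the GDSL lipases LOC104894041 and LOC104903605, NAC 104 and xanthine dehydrogenase were lost when S_7 replicate 3 was left out, and the causes were not tested. The depth of the libraries is unknown, so that its limit on low FPKM values could not be assessed.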
